A study of Mus musculus with 6 samples.

Results

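Glycosyltransferases and the enzymes that work beside them build the sugar chains of glycoproteins, glycolipids and proteoglycans, and their transcripts were compared between Sirt6-depleted and control vascular smooth muscle cells. The genes were taken by name, with a pattern covering the oligosaccharyltransferase, the N-glycan, O-GalNAc, O-mannose and GPI-anchor enzymes, the galactosyl-, fucosyl- and sialyltransferases, and the heparan and chondroitin sulfate enzymes. The pattern took 64 of the 7384 genes in the deposited tables, out of 180 protein-coding genes whose names it takes in the mouse annotation, and the other annotated genes were not analysed here. The cells were contractile cells of the vessel wall, isolated from mouse aorta and cultured. The siSirt6 group held 3 libraries from cells given a small interfering RNA against Sirt6, and the Control group held 3 libraries from control cells, both for 48 h. Sirt6 encodes a NAD-dependent deacylase of the sirtuin family. What the control cells received, and the strain, sex and age of the mice, are not given in the sources used here. Nothing in the labels says that the 3 libraries of a group came from separate cultures or animals, so p-values measure the spread between these libraries, which may be technical.

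N-glycans are assembled on a lipid carrier, dolichol, in the endoplasmic reticulum, moved as a block onto nascent proteins by the oligosaccharyltransferase, and then trimmed and rebuilt in the Golgi. Mucin-type O-glycans are begun in the Golgi by GALNT enzymes, which attach N-acetylgalactosamine to serine or threonine, and chains of either kind can be extended with galactose and capped with sialic acid. Heparan, chondroitin and dermatan sulfate chains grow on a shared linker on proteoglycan core proteins and are then sulfated, and in the artery wall they hold growth factors, lipoproteins and water in the matrix.

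Values are normalised read counts, that is whole reads per gene divided by 1 factor per library. The listed genes took 14614192 to 15526399 reads in the siSirt6 libraries and 14458847 to 14563794 in the Control libraries. Sirt6, on the minus strand of chromosome 10 (81621785 to 81627797, GRCm38), averaged 55.9 ± 10.1 normalised read counts in siSirt6 libraries and 259.7 ± 9.62 in Control libraries (SD, n = 3 each), so the targeted transcript was at 0.215 of its Control level. Of 7179 genes tested with limma, 7166 passed an adjusted p of 0.05, so the deposited tables hold few genes that did not differ and a call alone says little about any gene in them. Markers of smooth muscle, of which 6 of 8 were in the tables, summed to 102338 to 103408 in siSirt6 libraries and 63721 to 63957 in Control libraries, and 5 of the 6 were higher. Most of that sum was Acta2, at 96836 in siSirt6 libraries and 58253 in Control libraries, and Smtn was lower, at 0.813 of its Control level. Endothelial markers, 8 of 10, summed to 1806 to 1973 in siSirt6 libraries and 987 to 1129 in Control libraries, and all 8 were higher. The sums were 1978 to 2018 against 1777 to 1822 for 3 of 8 macrophage and leukocyte markers, and 18600 to 19036 against 19642 to 19890 for 7 of 7 fibroblast markers, siSirt6 given before Control. The fibroblast markers went both ways, 3 higher and 4 lower, with ratios to the Control level of 0.331 for Scara5, 1.64 for Dpt and 1.24 for Ly6a, which took 10859 of the sum in siSirt6 libraries and 8758 in Control libraries. No marker in the tables was at 0 in a library, and the part of these shifts in the results below was not tested. In such bulk libraries, fewer cells of a type and less RNA per cell cannot be told apart.

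Transcripts of the glycan enzymes moved in both directions and by small amounts. Of the 64 genes, 62 reached a value of 10 in 3 or more libraries and were tested, and 26 of them (41.9%) were higher and 36 (58.1%) lower in siSirt6 cells by limma at an adjusted p of 0.05. Among all tested genes 50.5% were higher and 49.3% lower, and 99.8% were called in either direction. The counts by role given below cover few genes each and are to be read beside these shares. The median log2 change was -0.20 over the 62 genes and 0.08 over all tested genes. The median size of the change regardless of sign was 0.30 on the log2 scale for the enzymes and 0.37 for all genes, and 1 enzyme, the chondroitin sulfotransferase Chst13, passed 2-fold, against 7.72% of all tested genes. The siSirt6 libraries lay wholly above the Control libraries for 25 enzymes and wholly below for 35, and the groups overlapped for Galnt12 and B4galt7. Over all genes these shares were 49.0% above and 47.8% below, 96.8% together. Most enzymes given with library values below were chosen by small p or large change, so their lack of overlap adds little. Exons of 20 enzymes, among them Man1a, Rpn1, Pigk, St3gal4, Pomgnt1, Galnt7, Galnt11 and Chsy1, overlap a gene on the opposite strand, and since the sources used here do not give the strand setting of the counting, reads of the partners cannot be told apart. Summed over the 64 genes, the values came to 102343 ± 563 in siSirt6 libraries and 97879 ± 377 in Control libraries (SD, n = 3 each), a ratio of 1.05. As a share of all listed values the sum was 0.669% ± 0.0056 in siSirt6 libraries and 0.695% ± 0.0028 in Control libraries, a ratio of 0.963. Scaled to listed totals, which shifts all genes by -0.12 on the log2 scale, 18 enzymes were higher, 37 lower and 7 not called, beside 37.7% higher and 49.7% lower among all genes. Adjusted over all annotated genes, with those outside the tables taken as p of 1, 23 were higher and 29 lower, beside 45.9% and 44.4% of all genes.

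**Figure D1:**
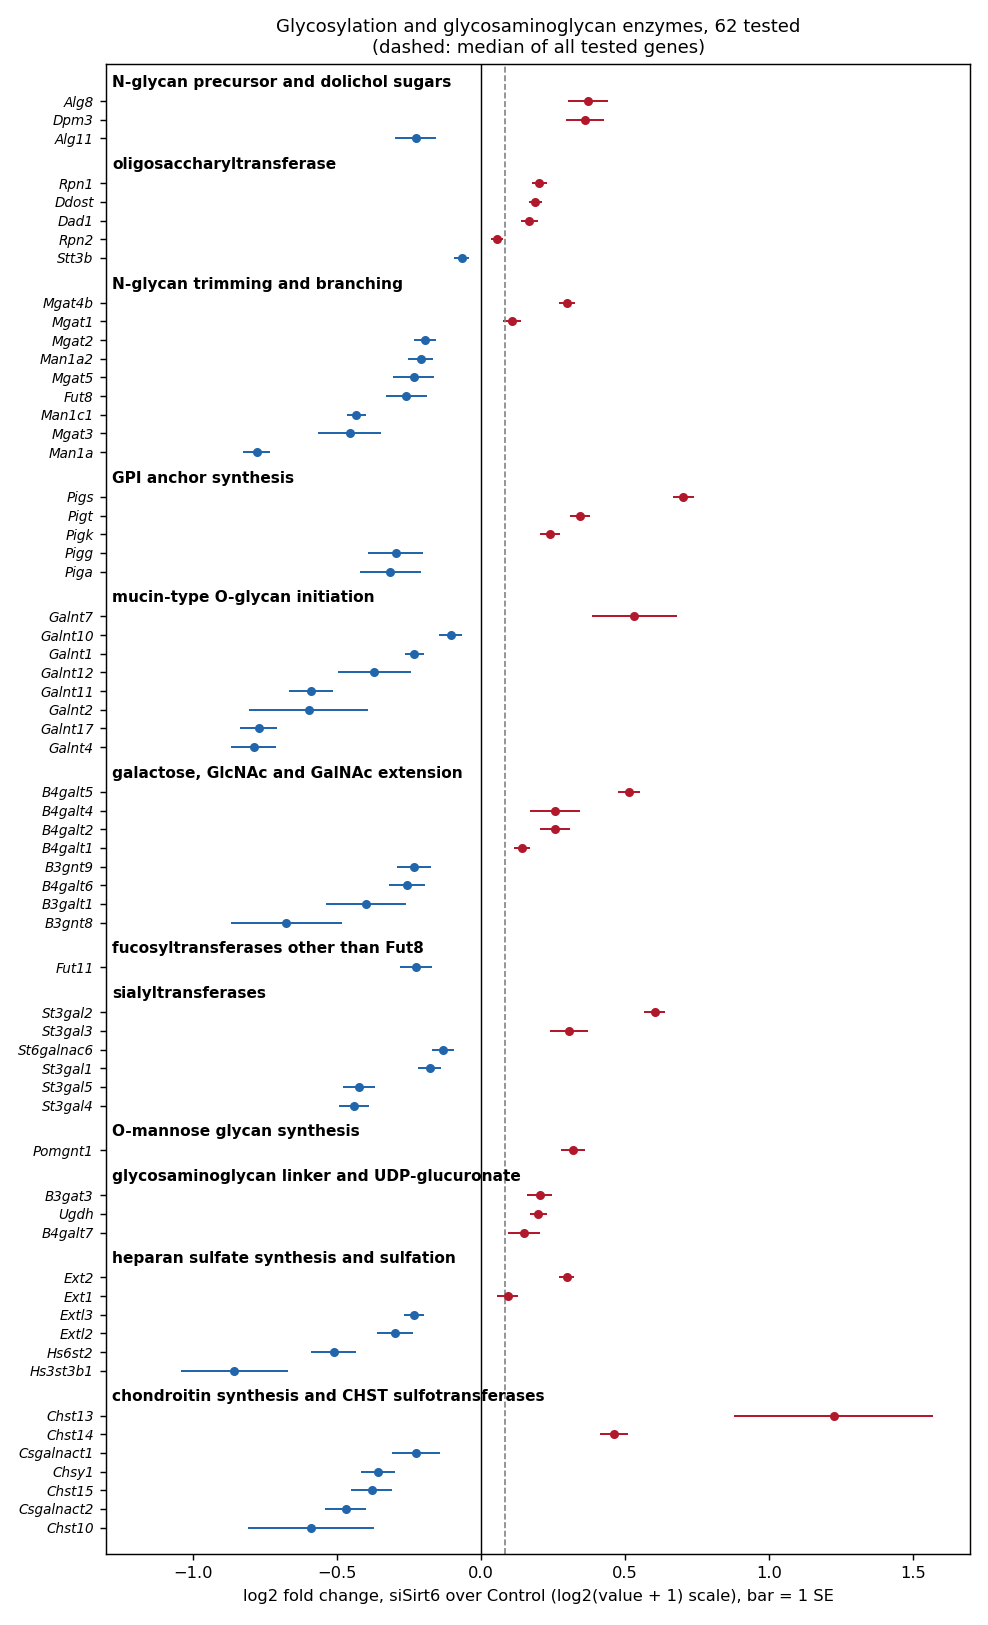
Log2 change (siSirt6 over Control, horizontal axis) of the 62 tested glycan enzymes, 1 point per gene with its limma standard error, grouped by role down the page; red marks higher and blue lower in siSirt6 cells, and the dashed line is the median of all tested genes, 0.08. The GPI transamidase subunit Pigs (0.70) and the sialyltransferase St3gal2 (0.60) stand far to the right, and most GALNT enzymes and the mannosidase Man1a (-0.78) to the left.

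The enzymes of lipid-linked precursor synthesis were thinly covered, with 3 of 15 annotated genes in the tables, of which 2 were higher and 1 lower. Alg8, the glucosyltransferase that adds a late glucose to the precursor, had 514, 513 and 527 normalised read counts in siSirt6 libraries against 417, 388 and 395 in Control libraries. It rose 1.29-fold with no overlap (log2 0.37 ± 0.069 SE, limma adjusted p = 1.2e-05). Dpm3, a subunit that holds dolichol-phosphate mannose synthase in the membrane, had 657, 661 and 614 in siSirt6 libraries against 481, 550 and 473 in Control libraries, a log2 change of 0.36 ± 0.067 SE (limma adjusted p = 1.12e-05). Alg11, a mannosyltransferase of the same pathway, had 418, 390 and 379 in siSirt6 libraries against 467, 480 and 441 in Control libraries and fell by 0.23 on the log2 scale (limma adjusted p = 0.00438). With a trend on length and GC content removed, as described further on, Alg8 was at 0.25, Dpm3 at -0.08 and Alg11 at 0.01.

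The oligosaccharyltransferase was the best covered role, with 5 of the 6 annotated genes that the name pattern takes. Of these, 4 were higher and 1 lower, the largest change being the 1.15-fold rise of Rpn1. Ddost, a noncatalytic subunit on chromosome 4, had 8560, 8637 and 8866 normalised read counts in siSirt6 libraries against 7665, 7661 and 7548 in Control libraries, 1.14-fold with a log2 change of 0.19 ± 0.023 SE (limma adjusted p = 5.03e-09). Rpn1, another noncatalytic subunit, had 5674, 5752 and 5539 in siSirt6 libraries against 5008, 4909 and 4824 in Control libraries (log2 0.20 ± 0.026 SE, limma adjusted p = 1.95e-08). Dad1, a small subunit first known as a defender against cell death, had 3205, 3248 and 3241 in siSirt6 libraries against 2961, 2825 and 2841 in Control libraries (log2 0.17 ± 0.031 SE, limma adjusted p = 8.92e-06). For each of these subunits every siSirt6 library was above every Control library. Rpn2 was 1.04-fold higher, a call lost without siSirt6 replicate 3 (log2 0.038, limma adjusted p = 0.0873) or Control replicate 2 (log2 0.046, limma adjusted p = 0.0807). The catalytic subunit Stt3b was at 0.955 of its Control level, a call lost without Control replicate 1 (log2 -0.059, limma adjusted p = 0.0554). With the trend removed, Rpn1 (0.24) and Dad1 (0.23) kept their call and Ddost stood at -0.01. Scaled to listed totals, Ddost was at 0.07, Dad1 at 0.05 (limma adjusted p = 0.12) and Rpn2 at -0.06. The complex has further subunits outside the pattern. Of these, Magt1 was at 0.807 of its Control level (log2 -0.31, limma adjusted p = 1.13e-08), a larger change than that of Rpn1. Krtcap2, Tmem258 and Ost4 were 1.13-, 1.11- and 1.08-fold higher. With the trend removed they were at -0.17, -0.22 and -0.24, and Magt1 at -0.11.

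Trimming and branching enzymes of the Golgi leaned the other way, with 9 of 15 annotated genes tested, 2 higher (22.2%) and 7 lower. Their median transcript length was 4665 nt, with a range of 2429 to 8436 nt that spans 3 length bins of all genes. The share higher among all genes was 76.6% at 67 to 2516 nt, 49.7% at 2517 to 4371 nt and 24.8% at 4372 to 123179 nt. With the trend removed, 2 of these enzymes were higher, 5 lower and 2 not called, with a median log2 change of -0.16. The largest fall was that of Man1a, a class I alpha-mannosidase that trims the high-mannose core before complex chains can form, on chromosome 10 at 53904785 to 54076609 (GRCm38, minus strand). It had 927, 871 and 957 normalised read counts in siSirt6 libraries against 1575, 1621 and 1531 in Control libraries. The groups lay far apart, and Man1a fell to 0.583 of its Control level (log2 -0.78 ± 0.046 SE, limma adjusted p = 1.35e-16). Man1c1, a mannosidase of the same class, had 2297, 2225 and 2168 in siSirt6 libraries against 3134, 2956 and 2937 in Control libraries and fell to 0.741 of its Control level (log2 -0.43 ± 0.034 SE, limma adjusted p = 3.04e-13). Man1a2, the remaining mannosidase, was at 0.866 of its Control level, and all 3 were lower under every scaling tried, whereas with the length and GC trend removed Man1a2 was at 0.13 while Man1a (-0.54) and Man1c1 (-0.34) stayed lower.

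The branching enzymes were split. Mgat4b, which adds an antenna to complex N-glycans, had 4872, 4724 and 4815 normalised read counts in siSirt6 libraries against 3878, 3961 and 3879 in Control libraries and rose 1.23-fold (log2 0.30 ± 0.027 SE, limma adjusted p = 8.08e-12). Mgat3, which adds the bisecting residue that hinders further branching, had 165, 152 and 158 in siSirt6 libraries against 197, 217 and 240 in Control libraries, at 0.726 of the Control level (log2 -0.46 ± 0.11 SE, limma adjusted p = 3.31e-04). The groups did not overlap for either enzyme, and both kept their call with the trend removed (0.16 for Mgat4b and -0.33 for Mgat3). Mgat2 and Mgat5, which add antennae, were at 0.874 and 0.849 of their Control levels, and the core fucosyltransferase Fut8 was at 0.837. Mgat1, which starts hybrid and complex chains, was 1.08-fold higher and was at -0.01 when scaled to listed totals.

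The promoters of pairs that moved together in these pathways are shown so that their letters can be compared: the oligosaccharyltransferase subunits Ddost and Rpn1 and the GPI transamidase subunits Pigs and Pigt, which were higher, and the mannosidases Man1a and Man1c1, which were lower. Each sequence is the RefSeq window of 250 bases before to 50 bases after the annotated start on GRCm38.p6, read 5′ to 3′ along the gene's strand, and capitals mark CCAAT or its reverse complement ATTGG. Pigt has 2 annotated starts, and the most upstream is shown.
Ddost: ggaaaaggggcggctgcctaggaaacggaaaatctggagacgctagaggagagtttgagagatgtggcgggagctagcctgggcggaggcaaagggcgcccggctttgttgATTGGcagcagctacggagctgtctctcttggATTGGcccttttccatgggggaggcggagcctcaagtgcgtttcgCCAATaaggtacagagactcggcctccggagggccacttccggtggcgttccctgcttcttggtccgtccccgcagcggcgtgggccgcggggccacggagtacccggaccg
Rpn1: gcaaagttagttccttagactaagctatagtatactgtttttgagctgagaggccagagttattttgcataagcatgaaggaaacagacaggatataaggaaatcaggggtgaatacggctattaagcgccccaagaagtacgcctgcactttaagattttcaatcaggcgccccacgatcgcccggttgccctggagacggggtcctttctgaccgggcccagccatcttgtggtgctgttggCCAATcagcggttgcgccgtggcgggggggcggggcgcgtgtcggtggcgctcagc
Pigs: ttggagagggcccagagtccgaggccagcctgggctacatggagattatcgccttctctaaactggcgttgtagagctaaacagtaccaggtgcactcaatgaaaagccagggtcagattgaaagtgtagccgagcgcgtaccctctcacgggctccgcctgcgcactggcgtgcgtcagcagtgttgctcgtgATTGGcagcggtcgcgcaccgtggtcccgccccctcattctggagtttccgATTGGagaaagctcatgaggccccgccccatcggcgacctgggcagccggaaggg
Pigt: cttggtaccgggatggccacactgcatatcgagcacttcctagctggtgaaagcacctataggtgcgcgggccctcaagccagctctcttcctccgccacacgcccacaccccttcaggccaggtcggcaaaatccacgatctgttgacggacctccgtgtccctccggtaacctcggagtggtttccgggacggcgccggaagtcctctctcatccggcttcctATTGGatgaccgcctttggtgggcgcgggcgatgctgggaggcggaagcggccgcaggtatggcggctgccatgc
Man1a: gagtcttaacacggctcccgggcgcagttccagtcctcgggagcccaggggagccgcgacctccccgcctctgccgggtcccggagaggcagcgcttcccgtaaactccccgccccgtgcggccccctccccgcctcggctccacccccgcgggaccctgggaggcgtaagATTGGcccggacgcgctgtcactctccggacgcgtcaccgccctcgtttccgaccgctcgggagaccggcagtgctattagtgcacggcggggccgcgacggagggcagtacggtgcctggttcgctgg
Man1c1: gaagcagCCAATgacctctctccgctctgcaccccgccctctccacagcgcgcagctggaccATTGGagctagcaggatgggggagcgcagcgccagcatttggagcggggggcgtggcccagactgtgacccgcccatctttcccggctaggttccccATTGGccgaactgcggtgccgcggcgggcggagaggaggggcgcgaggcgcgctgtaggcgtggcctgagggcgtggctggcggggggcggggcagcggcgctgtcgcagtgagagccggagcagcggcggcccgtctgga
The windows are chr4:138304488-138304787 (plus strand) for Ddost, chr6:88084223-88084522 (plus) for Rpn1, chr11:78328172-78328471 (plus) for Pigs, chr2:164497275-164497574 (plus) for Pigt, chr10:54075688-54075987 (minus) for Man1a and chr4:134704241-134704540 (minus) for Man1c1. All 6 windows hold the letters CCAAT on either strand, with 3 matches in Ddost, 1 in Rpn1, 2 in Pigs, 1 in Pigt, 1 in Man1a and 3 in Man1c1, so the letters did not separate the higher pairs from the lower pair. Of the 64 enzymes, 46 had a window in the RefSeq table, and CCAAT was in 26 of them (56.5%), in 10 of 22 of the higher and 15 of 23 of the lower enzymes (1 of the 46 was not tested), against 41.1% of 27025 genes. The letters CCGGAAG of ETS-type sites were in 10 of 46 windows (21.7%), 6 of them of higher and 4 of lower enzymes, against 9.93% of all genes. The ER stress response element, CCAAT followed after 9 bases of any kind by CCACG, which overlaps the CCAAT motif, was in none of the 46 windows and in 0.137% of all genes. Both strands were searched for each motif, and a match describes letters only. The 27025 genes are all those with a RefSeq window, among them genes outside the deposited tables, whereas the enzymes are all inside them. Shares over the listed genes alone were not computed, so the enzymes cannot be called rich in these letters.

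GPI anchors, the glycolipids that tether some proteins to the cell surface, are attached by a transamidase, and the 3 transamidase subunits in the tables were all higher. Pigs, on chromosome 11 at 78328415 to 78342782 (GRCm38, plus strand), had 2417, 2329 and 2433 normalised read counts in siSirt6 libraries against 1458, 1490 and 1463 in Control libraries. The spread within each group was small beside the gap, and Pigs rose 1.63-fold (log2 0.70 ± 0.036 SE, limma adjusted p = 3.99e-18), the smallest p among the 62 enzymes. Pigt had 2297, 2196 and 2224 in siSirt6 libraries against 1780, 1783 and 1727 in Control libraries and rose 1.27-fold (log2 0.34 ± 0.036 SE, limma adjusted p = 2.32e-10). Pigk, the catalytic subunit, had 2140, 2081 and 2071 in siSirt6 libraries against 1800, 1772 and 1752 in Control libraries and rose 1.18-fold (log2 0.24 ± 0.036 SE, limma adjusted p = 3.29e-07). With the trend removed these changes were 0.55 for Pigs, 0.21 for Pigt and 0.40 for Pigk. Enzymes that build the anchor itself were lower where measured: Piga, part of the enzyme of the first step, was at 0.803 and Pigg, which adds an ethanolamine phosphate, at 0.813 of the Control level. Both calls were lost with the trend removed, where Piga was at -0.17 (limma adjusted p = 0.129) and Pigg at -0.12 (limma adjusted p = 0.262), and that of Piga with DESeq2 (adjusted p = 0.0615). Of 20 annotated PIG genes 5 were in the tables.

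GALNT enzymes, which start mucin-type O-glycans, were mostly lower, with 8 of 19 annotated genes tested, 7 lower and 1 higher. Of all tested genes 49.3% were lower and 50.5% higher. Galnt4, which prefers peptides that already carry sugars, on chromosome 10 at 99108159 to 99113247 (GRCm38, plus strand), had 266, 306 and 303 normalised read counts in siSirt6 libraries against 519, 488 and 504 in Control libraries. The siSirt6 level was 0.579 of the Control level (log2 -0.79 ± 0.078 SE, limma adjusted p = 7.28e-11), although it shares exon sequence on the same strand with Poc1b, so its reads are uncertain. Galnt17, on chromosome 5 at 130872082 to 131308497 (GRCm38, minus strand), had 434, 434 and 427 in siSirt6 libraries against 763, 692 and 759 in Control libraries, at 0.585 of the Control level (log2 -0.77 ± 0.063 SE, limma adjusted p = 8.99e-13). Galnt11 had 331, 340 and 384 in siSirt6 libraries against 491, 542 and 556 in Control libraries, at 0.664 of the Control level (log2 -0.59 ± 0.076 SE, limma adjusted p = 2.23e-08). In each of these genes the highest siSirt6 library was below the lowest Control library. Galnt7, which also acts on peptides already carrying sugars, was the exception, with 104, 112 and 122 in siSirt6 libraries against 77.1, 76.9 and 78.2 in Control libraries (log2 0.53 ± 0.15 SE, limma adjusted p = 0.00136). Galnt2, with an exon shared with Gm20388, was at 0.655 of its Control level, Galnt1 at 0.852, Galnt12 at 0.781 and Galnt10 at 0.930. The call of Galnt12 was lost without siSirt6 replicate 3 (log2 -0.22, limma adjusted p = 0.0878) and that of Galnt10 without Control replicate 1 (log2 -0.09, limma adjusted p = 0.0640). The family was 7 lower and 1 higher with values scaled to listed totals as well, and 6 lower, 1 higher and 1 not called with the trend removed. Adjusted over all annotated genes, it was 4 lower and 1 higher. There Galnt2 (limma adjusted p = 0.0571), Galnt12 (limma adjusted p = 0.0542) and Galnt10 (limma adjusted p = 0.110) were not called.

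Per kilobase of transcript, Galnt1 was the most abundant GALNT, at 584 ± 14.1 normalised read counts per kilobase in siSirt6 libraries and 686 ± 13.6 in Control libraries (SD, n = 3 each). Galnt10 followed at 295 in siSirt6 libraries and 317 in Control libraries. Galnt11 was at 87.7 ± 7.04 in siSirt6 libraries and 132 ± 8.60 in Control libraries. Galnt12, Galnt4 and Galnt17 lay between 53.7 and 65.2 per kilobase in siSirt6 libraries and between 83.4 and 99.0 in Control libraries. Library values of neighbours among these 3 overlapped, except that Galnt4 lay above Galnt17 in every Control library. Galnt7 (26.1 in siSirt6 libraries and 17.9 in Control libraries) and Galnt2 (8.76 and 13.4) came last in both groups. The 2 most abundant GALNT transcripts also had the 2 smallest log2 changes of the family, and Galnt1 and Galnt10 were at -0.07 and -0.01 with the trend removed.

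Among the enzymes that extend chains with galactose, N-acetylglucosamine or N-acetylgalactosamine, 8 of 27 annotated genes were tested, 4 higher and 4 lower. B4galt5, a lactosylceramide synthase at the entry to most glycosphingolipids, on chromosome 2 at 167298444 to 167349183 (GRCm38, minus strand), had 2403, 2589 and 2304 normalised read counts in siSirt6 libraries against 1666, 1732 and 1705 in Control libraries. It rose 1.43-fold (log2 0.51 ± 0.039 SE, limma adjusted p = 1.26e-13). B4galt6, the other lactosylceramide synthase, was at 0.837 of its Control level. B4galt2 had 970, 1025 and 932 in siSirt6 libraries against 798, 840 and 809 in Control libraries (log2 0.26 ± 0.052 SE, limma adjusted p = 3.69e-05), though it shares exon sequence on the same strand with Ccdc24. B4galt1, the main galactosyltransferase of N-glycans, had 4513, 4339 and 4422 in siSirt6 libraries against 3923, 3993 and 4104 in Control libraries (log2 0.14 ± 0.028 SE, limma adjusted p = 2.41e-05). For all 3 of the higher enzymes just named, the groups were apart. B4galt1 was at 0.02 when scaled to listed totals (limma adjusted p = 0.393), and with the trend removed B4galt5 was at 0.59, B4galt2 at 0.29, B4galt1 at 0.22 and B4galt6 at 0.01. With B4galt4 (1.20-fold) and the linker enzyme B4galt7, 5 of the 6 B4GALT genes were higher, but only 2 of the 6 when values were scaled to listed totals. B3gnt8, B3gnt9 and B3galt1 were at 0.615, 0.852 and 0.760 of their Control levels, and the value of B3gnt8 rests on few reads. Without siSirt6 replicate 1 the calls of B4galt4 (log2 0.20, limma adjusted p = 0.0541) and B3galt1 (log2 -0.29, limma adjusted p = 0.0571) were lost. Fut11, the only fucosyltransferase in the tables besides Fut8, had 745, 731 and 688 in siSirt6 libraries against 850, 872 and 807 in Control libraries (log2 -0.23 ± 0.055 SE, limma adjusted p = 3.84e-04).

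Sialyltransferases, which cap chains with sialic acid, were 2 higher and 4 lower among 6 tested. St3gal2, which acts on O-glycans and gangliosides, had 2331, 2316 and 2422 normalised read counts in siSirt6 libraries against 1593, 1537 and 1518 in Control libraries and rose 1.52-fold (log2 0.60 ± 0.037 SE, limma adjusted p = 3.29e-16). St3gal4, which acts on N-glycans among other chains, had 748, 723 and 685 in siSirt6 libraries against 950, 991 and 982 in Control libraries, at 0.737 of the Control level (log2 -0.44 ± 0.053 SE, limma adjusted p = 4.97e-09). St3gal5, which makes the simple ganglioside from which most others derive, had 665, 642 and 653 in siSirt6 libraries against 858, 854 and 919 in Control libraries, at 0.745 of the Control level (log2 -0.42 ± 0.055 SE, limma adjusted p = 2.51e-08). No siSirt6 library fell within the Control range for these genes, and with the trend removed the changes were larger, at 0.68 for St3gal2, -0.60 for St3gal4 and -0.54 for St3gal5. St3gal3 was 1.24-fold higher, and St3gal1 and St6galnac6 were at 0.886 and 0.912 of their Control levels. St8sia1, which makes disialylated gangliosides, was too low to be tested, at 0.989, 0 and 0 in siSirt6 libraries and 3.90, 0.974 and 6.76 in Control libraries. Per kilobase, St3gal2 was the most abundant ST3GAL transcript in siSirt6 libraries at 536 ± 13.0, followed by St3gal4 at 343 ± 15.1, St3gal1 at 301 ± 17.7, St3gal3 at 268 ± 18.3 and St3gal5 at 268 ± 4.78 (SD, n = 3 each). Of these neighbours, St3gal3 and St3gal5 did not differ beyond their spread. In Control libraries St3gal4 led at 465 ± 10.2, and St3gal5 (360 ± 15.1), St3gal2 (353 ± 8.89) and St3gal1 (340 ± 6.82) followed, with St3gal3 last at 217 ± 17.8. Library values of St3gal5 and St3gal2 overlapped, as did those of St3gal2 and St3gal1, though St3gal2 lay above St3gal1 in every Control library.

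**Figure D2:**
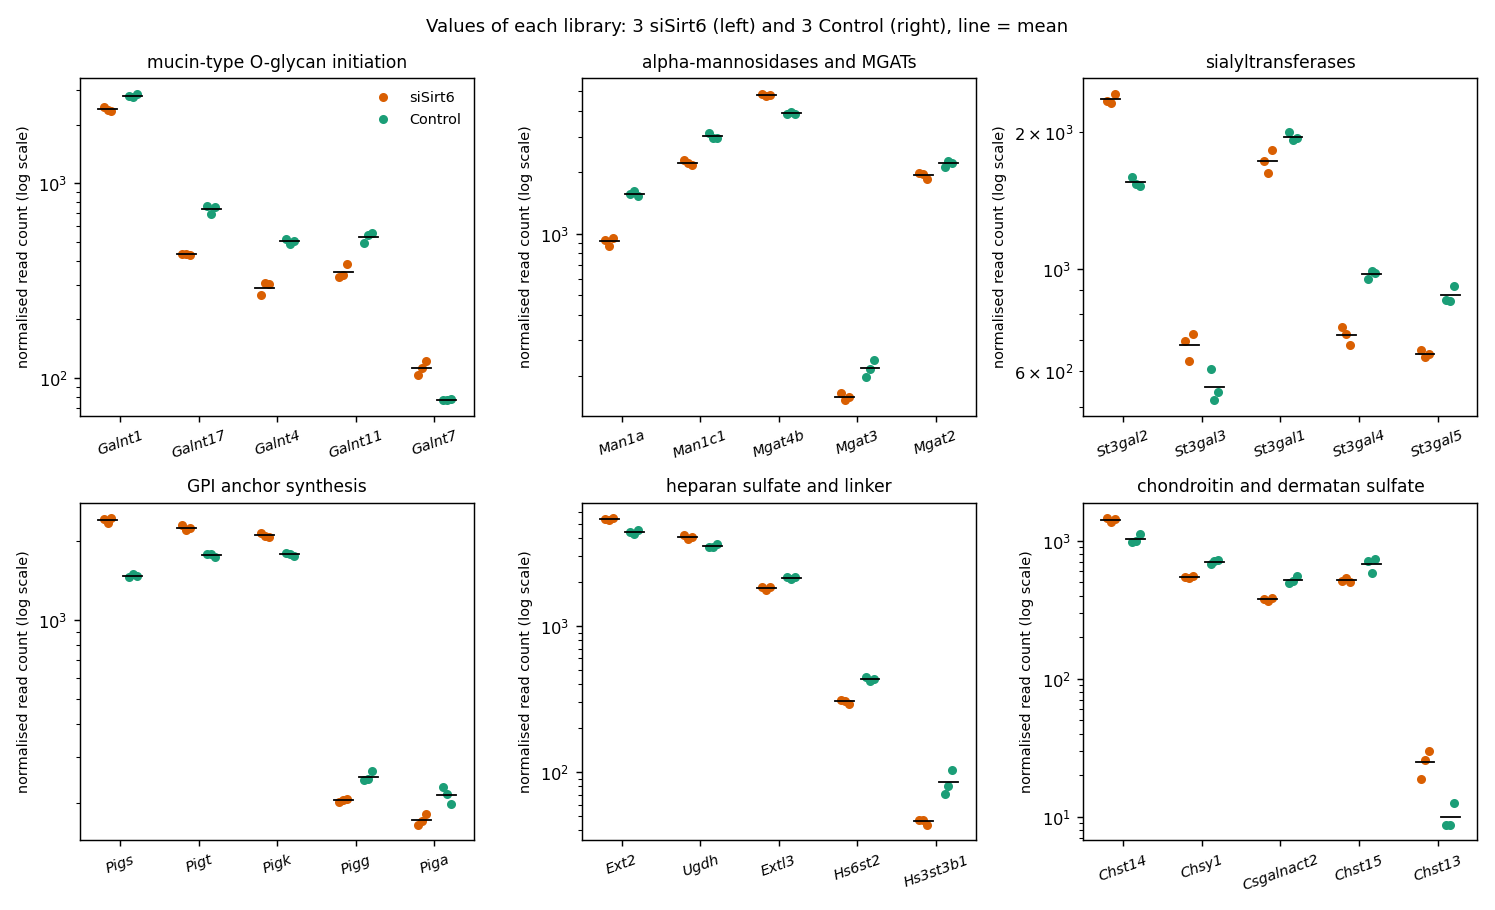
Normalised read counts (vertical axis, log scale) of selected glycan enzymes in each library, siSirt6 left of Control, with 1 point per library and a bar at the group mean (n = 3 each). The groups are apart in Pigs, St3gal2, Man1a, Galnt17 and Galnt4, and there the gap between groups is wider than the spread of the libraries within a group.

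Glycosaminoglycan synthesis begins with a supply of UDP-glucuronate and a linker built on the core protein. The 3 genes of this step that the name pattern took, of 6 annotated, were all higher, by 1.11- to 1.15-fold. Outside the pattern, Fam20b and Pxylp1, which act on the xylose of the linker, were lower. Fam20b was at 0.696 of its Control level (log2 -0.52, limma adjusted p = 1.78e-10) and Pxylp1 at 0.706 (log2 -0.50, limma adjusted p = 9.59e-07). Ugdh, which makes UDP-glucuronate, had 4156, 3944 and 4058 normalised read counts in siSirt6 libraries against 3483, 3450 and 3650 in Control libraries (log2 0.20 ± 0.030 SE, limma adjusted p = 3.41e-07), with an exon shared on the same strand with Gm43552. B3gat3, which completes the linker, had 1245, 1273 and 1220 in siSirt6 libraries against 1088, 1057 and 1099 in Control libraries (log2 0.20 ± 0.044 SE, limma adjusted p = 1.02e-04). B4galt7, which adds an early galactose of the linker, had 895, 792 and 851 in siSirt6 libraries against 767, 727 and 793 in Control libraries, and the groups overlapped (log2 0.15 ± 0.056 SE, limma adjusted p = 0.0124). The B4galt7 call was lost without siSirt6 replicate 1 (log2 0.11, limma adjusted p = 0.0940) or Control replicate 2 (log2 0.12, limma adjusted p = 0.0778). With the trend removed Ugdh was at 0.50, B3gat3 at -0.05 and B4galt7 at -0.03, and scaled to listed totals B3gat3 (0.09, limma adjusted p = 0.0695) and B4galt7 (0.03, limma adjusted p = 0.604) were not called. Pomgnt1, an O-mannose enzyme of dystroglycan and the only such gene in the tables, had 1717, 1609 and 1654 in siSirt6 libraries against 1295, 1301 and 1392 in Control libraries and rose 1.25-fold (log2 0.32 ± 0.042 SE, limma adjusted p = 3.04e-08).

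Heparan sulfate enzymes were 2 higher and 4 lower among 6 tested of 20 annotated, with the polymerase subunits higher. Their median transcript length was 4631 nt, with a range of 3000 to 7663 nt. Among all genes 49.7% were higher at 2517 to 4371 nt and 24.8% at 4372 to 123179 nt. Ext2, a subunit of that polymerase, on chromosome 2 at 93661028 to 93822568 (GRCm38, minus strand), had 5379, 5282 and 5449 normalised read counts in siSirt6 libraries against 4368, 4234 and 4506 in Control libraries. It rose 1.23-fold with no overlap (log2 0.30 ± 0.027 SE, limma adjusted p = 1.27e-11). Ext1, its partner, had 2393, 2405 and 2665 in siSirt6 libraries against 2371, 2305 and 2310 in Control libraries (log2 0.09 ± 0.037 SE, limma adjusted p = 0.0166). The Ext1 call was lost without siSirt6 replicate 3 (log2 0.043, limma adjusted p = 0.241) or Control replicate 2 (log2 0.086, limma adjusted p = 0.0596), and the change was -0.03 scaled to listed totals and 0.43 with the trend removed. Extl3, which starts heparan sulfate chains, had 1836, 1772 and 1853 in siSirt6 libraries against 2156, 2105 and 2153 in Control libraries (log2 -0.23 ± 0.036 SE, limma adjusted p = 6.3e-07) and was at -0.03 with the trend removed. Extl2, a related transferase, was at 0.811 of its Control level. The sulfotransferases were lower. Hs6st2, which sulfates glucosamine, had 313, 307 and 293 in siSirt6 libraries against 447, 423 and 435 in Control libraries, at 0.701 of the Control level (log2 -0.51 ± 0.077 SE, limma adjusted p = 4.08e-07). Hs3st3b1, another heparan sulfate sulfotransferase, had 47.5, 47.4 and 43.7 in siSirt6 libraries against 71.2, 80.8 and 104 in Control libraries (log2 -0.86 ± 0.19 SE, limma adjusted p = 1.01e-04). Its relative Hs3st6 was too low to be tested, at 2.97, 2.06 and 5.20 in siSirt6 libraries and 12.7, 7.79 and 11.6 in Control libraries. With the trend removed Hs6st2 was at -0.34.

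Chondroitin sulfate enzymes and CHST sulfotransferases were 2 higher and 5 lower among 7 tested of 18 annotated, and the chain-building enzymes were all lower. Beside this, 50.5% of all tested genes were higher and 49.3% lower. Chsy1, a chondroitin synthase, had 550, 533 and 559 normalised read counts in siSirt6 libraries against 672, 712 and 720 in Control libraries, at 0.780 of the Control level (log2 -0.36 ± 0.060 SE, limma adjusted p = 2.76e-06). Csgalnact2, which starts chondroitin chains, had 379, 364 and 387 in siSirt6 libraries against 497, 511 and 559 in Control libraries, at 0.721 of the Control level (log2 -0.47 ± 0.072 SE, limma adjusted p = 5.61e-07). Neither gene's groups overlapped. Csgalnact1, which shares that role, was at 0.855 of its Control level, a call lost without Control replicate 2 (log2 -0.18, limma adjusted p = 0.0744). Chst14, which sulfates dermatan, on chromosome 2 at 118926496 to 118928585 (GRCm38, plus strand), had 1454, 1354 and 1444 in siSirt6 libraries against 983, 993 and 1111 in Control libraries and rose 1.38-fold (log2 0.46 ± 0.048 SE, limma adjusted p = 3.11e-10). Chst13, a chondroitin sulfotransferase, had 18.8, 25.8 and 30.2 in siSirt6 libraries against 8.78, 8.76 and 12.6 in Control libraries, a 2.48-fold difference that rests on few reads (log2 1.22 ± 0.34 SE, limma adjusted p = 0.00152). Chst15, which sulfates chondroitin already sulfated elsewhere, was at 0.765 of its Control level. Chst10, which makes the HNK-1 epitope, was at 0.658, a call lost without Control replicate 3 (log2 -0.48, limma adjusted p = 0.0708). With the trend removed Chst14 was at 0.26, Chsy1 at -0.27 and Csgalnact2 at -0.16, while Csgalnact1 (-0.11, limma adjusted p = 0.238) and Chst10 (-0.36, limma adjusted p = 0.113) were not called.

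Ratios between enzymes of related roles, taken within each library, do not depend on the scaling between libraries; they are ratios of read counts, not of levels per length. These pairs were picked with the values in view and carry no test. St3gal2 to St3gal4 was 3.29 ± 0.221 in siSirt6 libraries and 1.59 ± 0.0741 in Control libraries (SD, n = 3 each). Pigs to Piga, attachment against the first step of the anchor, was 13.9 ± 0.648 in siSirt6 libraries and 6.87 ± 0.499 in Control libraries. Chst14 to Csgalnact2 was 3.76 ± 0.0654 in siSirt6 libraries and 1.97 ± 0.0231 in Control libraries. Each of these ratios was 1.91 to 2.07 times as large in siSirt6 cells. B4galt5 to B4galt6, the lactosylceramide synthases, was 4.49 ± 0.283 in siSirt6 libraries and 2.63 ± 0.185 in Control libraries. Mgat4b to Mgat3 was 30.4 ± 0.839 in siSirt6 libraries and 18.04 ± 1.75 in Control libraries. Ext2 to Extl3 was 2.95 ± 0.0271 in siSirt6 libraries and 2.04 ± 0.0437 in Control libraries, and Rpn1 to Stt3b was 1.12 ± 0.00735 in siSirt6 libraries and 0.930 ± 0.0184 in Control libraries. Since the members of a pair differ in transcript length, the length trend described next enters these ratios too.

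The direction of an enzyme's change went with the length of its transcript, as it did for all genes in the tables. Higher enzymes had a median longest transcript of 2954 nt and lower ones of 4619 nt, and the medians were 2492 nt and 4402 nt for all higher and lower genes. Among genes of 67 to 2516 nt, the shortest of 3 equal bins, 10 of 14 enzymes (71.4%) were higher, beside 76.6% of all genes. Among those of 2517 to 4371 nt, 12 of 25 enzymes (48.0%) were higher, beside 49.7% of all genes. Among those of 4372 to 123179 nt, 4 of 23 enzymes (17.4%) were higher, beside 24.8% of all genes. Across genes, which share libraries and are not independent replicates, Spearman's rho between log2 change and length was -0.48 for the 62 enzymes and -0.43 for 7130 genes. The same measure for GC content was 0.33 for the enzymes and 0.21 for all genes. For the mean value of a gene it was 0.44 for the enzymes and 0.14 for all genes. The median mean value was 1944.5 for higher and 590 for lower enzymes, beside 874 and 565 for all higher and lower genes. The trend removed below does not include this level. After a smooth trend on length and GC content, fitted over all genes, was subtracted, 20 enzymes were higher, 22 lower and 20 not called by limma, with a median log2 change of -0.03, beside 37.2% higher, 37.1% lower and a median of -0.01 over all genes. Pigs, St3gal2, B4galt5, Galnt7, Man1a, Galnt17, Galnt4, Galnt11, St3gal4 and St3gal5 kept their direction and call. Those not called were Dpm3, Alg11, Ddost, Rpn2, Stt3b, Mgat1, Mgat5, Pigg, Piga, Galnt10, B4galt6, B4galt4, B3galt1, Fut11, St3gal1, B3gat3, B4galt7, Extl3, Chst10 and Csgalnact1. The part of transcript length, expression level or RNA quality in these changes was not tested beyond this.

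**Figure D3:**
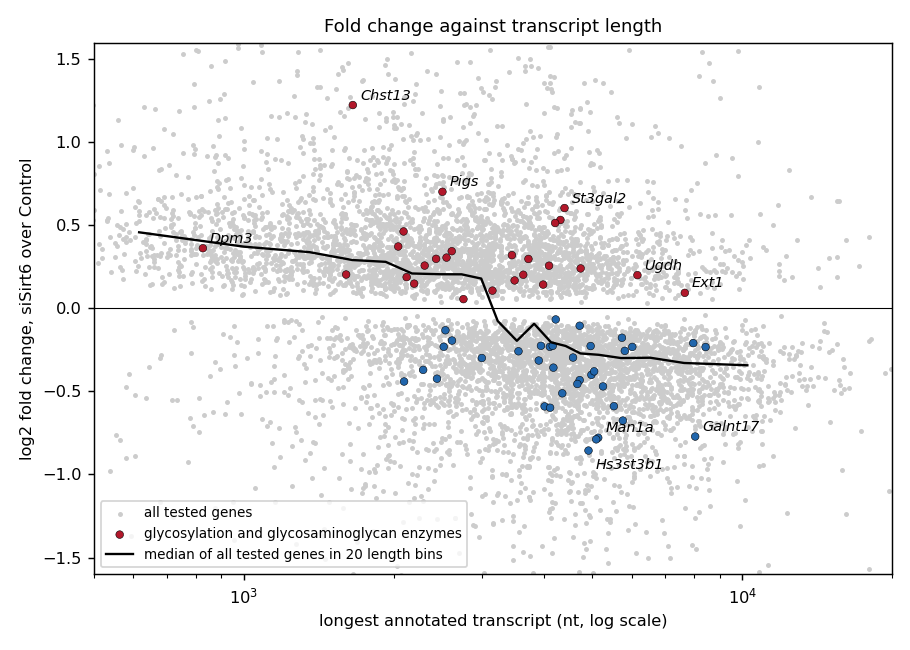
Log2 change (siSirt6 over Control, vertical axis) against the length of the longest transcript (horizontal axis, log scale, nt) for all tested genes in grey and the 62 glycan enzymes in red (higher) and blue (lower); the black line is the median of all genes in 20 bins of length, and genes outside the axis limits are not drawn. Both sets slope down with length, with a Spearman's rho of -0.48 for the enzymes and -0.43 for all genes.

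**Figure D4:**
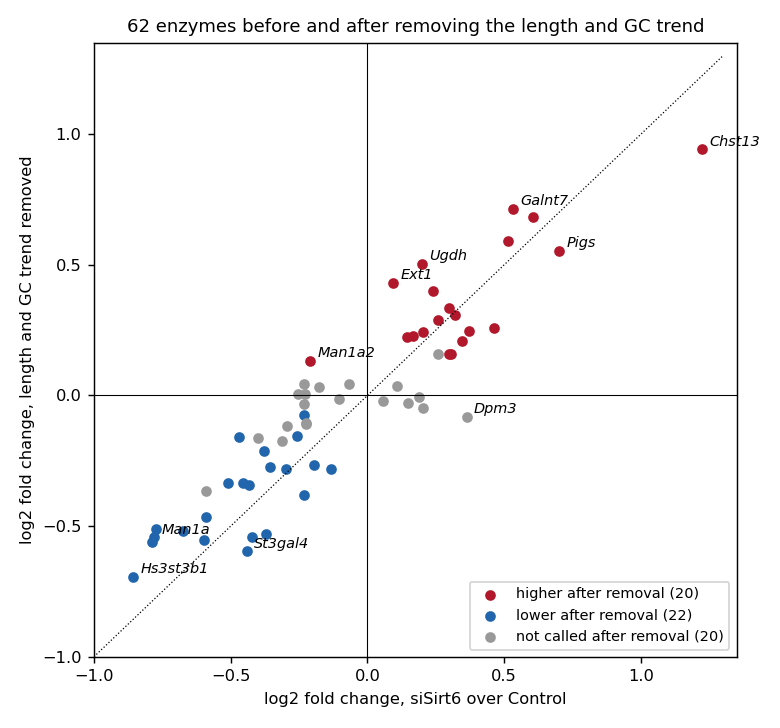
Log2 change of each of the 62 glycan enzymes with the length and GC trend removed (vertical axis) against the change before removal (horizontal axis), 1 point per gene, red for higher (20), blue for lower (22) and grey for not called (20) after removal; the dotted line marks equal values. Pigs (0.55) and St3gal2 (0.68) stay high and Man1a (-0.54) and Galnt4 (-0.56) stay low, and most of the grey points lie close to the zero line.

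Genes that feed or use these enzymes also moved both ways. Of 47 listed genes of sugar-nucleotide and sulfate-donor supply, 22 were tested, 11 higher and 11 lower. Pmm1, a phosphomannomutase toward GDP-mannose, had 2995, 2991 and 2912 normalised read counts in siSirt6 libraries against 2131, 2047 and 1995 in Control libraries, 1.44-fold higher (log2 0.53 ± 0.034 SE, limma adjusted p = 1.18e-15). Gfpt1, the entry enzyme of the hexosamine pathway that yields UDP-N-acetylglucosamine, had 914, 939 and 902 in siSirt6 libraries against 1232, 1304 and 1268 in Control libraries, at 0.724 of the Control level (limma adjusted p = 8.02e-11). With the trend removed these changes were 0.17 for Pmm1 and -0.16 for Gfpt1. Among 61 other listed glycan-building enzymes 38 were tested, 17 higher and 21 lower. Ganab, the catalytic subunit of the glucosidase that trims new N-glycans, had 4305, 4575 and 4332 in siSirt6 libraries against 2887, 2977 and 3027 in Control libraries, 1.49-fold higher (log2 0.57 ± 0.030 SE, limma adjusted p = 7.96e-18). Sulf2, which removes sulfate from heparan sulfate outside the cell, had 5219, 5400 and 5404 in siSirt6 libraries against 7240, 6893 and 7176 in Control libraries, at 0.752 of the Control level (log2 -0.41 ± 0.025 SE, limma adjusted p = 5.63e-16). Proteoglycan core proteins, the carriers of the sulfated chains, had 15 of 28 listed genes tested, 8 higher and 7 lower. Their median size of change regardless of sign was 0.55 on the log2 scale, and 3 of the 15 passed 2-fold. Over all tested genes the median size was 0.37, 7.72% passed 2-fold, and 50.5% were higher and 49.3% lower. Cd44, the hyaluronan receptor, had 4456, 4397 and 4793 in siSirt6 libraries against 2048, 2078 and 2012 in Control libraries, 2.22-fold higher (log2 1.15 ± 0.033 SE, limma adjusted p = 2.31e-25). Gpc3, a heparan sulfate proteoglycan bound to the membrane by a GPI anchor, had 440, 420 and 475 in siSirt6 libraries against 1495, 1401 and 1400 in Control libraries, at 0.311 of the Control level (log2 -1.69 ± 0.056 SE, limma adjusted p = 1.33e-23). In each of these 6 genes the siSirt6 and Control libraries did not overlap. That adds little, since the genes were chosen by their small p and 96.8% of all tested genes did not overlap.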

How the data were processed

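RNA was sequenced from 3 siSirt6 and 3 Control libraries made with a stranded mRNA kit, per the labels' protocols. HTSeq, HISAT2, Trimmomatic, Cufflinks and the build mm10 are named, without versions or roles, in the submitters' processing notes. Each deposited signal value is a whole read number over 1 factor per library (all whole within 0.001 reads); how the authors obtained the factors, and the strand setting of the counting, are not given in the sources used here, and the whole library depth is unknown. Genes that reached a value of 10 in 3 or more libraries were tested with limma 3.58.1 (R 4.3.3, trend and robust, 2-sided) on log2(value + 1), a scale that understates the change of low genes, with Benjamini-Hochberg adjustment over 7179 genes and a threshold of 0.05. Folds are ratios of group means of the values. Listed reads ranged from 14458847 to 15526399 per library. Lengths (longest transcript), GC content and positions came from GENCODE vM21 on GRCm38, with 7332 of 7384 identifiers found and all 64 enzymes having a length; the length and GC trend was a smooth fit (mgcv 1.9.3). Exons of 4 enzymes overlap another gene on the same strand and exons of 20 overlap a gene on the opposite strand, so their reads are uncertain. Alternatives, with edgeR 4.0.16 and DESeq2 1.42.0 on recovered reads of 5 libraries (without siSirt6 replicate 1, whose values were whole as well but whose step a unit check did not accept), are given in the closing section. The fits were also run on simulated data in which most genes did not change. Since nearly all genes differ here, that run cannot show how the fits behave on these data. Library values were given for the 3 smallest p in each role and the 6 largest rises and falls among enzymes averaging 5 CPM or more of listed values, and for the context lists the 2 smallest p; Chst13, Mgat3, Ext1, Hs3st3b1 and the genes too low to test were added after their values were seen. The members and lists were chosen with earlier results of these data known.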

Additional observations from a re-analysis of the deposited data

How the results depend on the processing

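The 26 enzymes higher and 36 lower were recomputed under pseudocounts of 0.5 and 5, other filters and scalings, edgeR and DESeq2, and with each library left out. Direction and call held in every alternative run for 36 of the 62 enzymes, of which 3 (B3gnt8, Hs3st3b1 and Chst13) were among 5 that the filter at 5 CPM left out, 10 lost their call without 1 library, as given beside them, and 13 reversed in at least 1 alternative. Without 1 library the counts were 23 to 26 higher and 34 to 36 lower, with a median log2 change of -0.20 to -0.18. The lower count was 22 with the length and GC trend removed. The count past 2-fold, 1 as reported, was 0 with a pseudocount of 5, 0 with a filter at 5 CPM of listed values, 0 with the trend removed and 3 with no filter. The median of -0.20 was -0.32 with listed totals, -0.23 with TMM, -0.22 with no filter, -0.18 with the filter at 5 CPM, -0.031 with the trend removed, -0.22 with edgeR and -0.22 with DESeq2, both of which also left out siSirt6 replicate 1 and so compared 2 libraries with 3; edgeR ended 3 calls and DESeq2 10. Reversed with the trend removed were Dpm3 (-0.082), Alg11 (0.0075), Ddost (-0.0065), Rpn2 (-0.021), Stt3b (0.044), Man1a2 (0.13), Mgat5 (0.043), B4galt6 (0.0063), St3gal1 (0.032), B3gat3 (-0.047) and B4galt7 (-0.030). Reversed with listed totals were Rpn2 (-0.063), Mgat1 (-0.012) and Ext1 (-0.025). Among these, Man1a2 and, with listed totals, Rpn2 passed the threshold on the other side. The cause of these shifts was not tested. Adjusted over all 55536 annotated genes, 23 enzymes were higher and 29 lower, beside 45.9% and 44.4% of all tested genes. Replicates of equal number did not visibly deviate together (correlations of -0.019, 0.027 and -0.001). This cannot settle whether libraries of equal number were cultured or prepared together. With the replicate numbers as a block the counts were 26 higher, 36 lower and 1 past 2-fold, with a median of -0.20, and no enzyme's call changed. Counting error limits Chst13, Hs3st3b1, B3gnt8, Chst10 and Galnt2, which rest on few reads. Besides, 3 libraries a group cannot give an exact permutation p below 0.1 for a single gene.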
